A study of Mus musculus with 3 samples.

Results

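Fc receptors bind the constant part of antibodies, and paired immunoreceptors are families in which closely related members send activating or inhibitory signals. The genes described here are the 4 mouse Fc gamma receptors Fcgr1, Fcgr2b, Fcgr3 and Fcgr4, the signalling adaptors Fcer1g and Tyrobp, and the inhibitory receptors Sirpa, Lair1, Cd200r1 and Pirb. They were followed through every probe set that the platform annotation assigned to one of these symbols alone, which gave 20 of 45101 probe sets and 10 of 18194 genes. A further 3 probe sets were assigned jointly to Pirb and related Pir genes and are given apart.

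Total RNA of 3 dendritic cell (DC) subsets was hybridised to Affymetrix mouse arrays, 1 array per subset. Plasmacytoid DC (pDC), CD11b+ conventional DC (cDC) and CD8+ cDC were flow-sorted from naive spleens of female C57bl/6 mice aged 6 to 8 weeks, after magnetic depletion of T and B cells, and no treatment or altered allele is given for any of them. RNA of 5 to 8 mice was pooled for each subset, so a single pool stands for each cell type and the antibodies that defined the pDC gate are not given in the sources used here. With 1 array per subset there was no spread between samples, no test was possible and no error could be given for a difference, and the number of arrays limits the precision.

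Activating Fc gamma receptors signal through an adaptor that carries an immunoreceptor tyrosine-based activation motif (ITAM), which recruits the kinase Syk once phosphorylated. Inhibitory receptors carry tyrosine motifs (ITIM) that recruit phosphatases and dampen the same kinases. In DC, this balance is known to set how antibody-coated antigen is taken up and whether immune complexes mature the cell.

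A gene was counted as higher on an array where its signal, the intensity as deposited, was at least 2-fold that on the other array and above a background level of 111.2, set from receptor genes of smell and taste. Each gene was represented by its brightest probe set. Signals of different genes were not set against each other except within marker lists, where they were summed and the brightest probe sets weigh most. By this rule 7 of the 10 genes were higher in CD11b+ cDC than in CD8+ cDC, where 10.3% of all 10707 genes above background were, and 1 was higher in CD8+ cDC, where 9.86% were. The 7 were Fcgr3, Fcgr4, Fcer1g, Tyrobp, Lair1, Sirpa and Cd200r1, and the 1 was Fcgr2b, the inhibitory Fc gamma receptor. Of the 7, Fcgr4 (log2 1.002), Tyrobp (1.21), Fcgr3 (1.22) and Cd200r1 (1.32) were near the 2-fold cut. The log2 differences of a gene's brightest probe sets differed with an SD of 0.75 in this pair. Against pDC, 5 genes were lower in CD8+ cDC (16.0% of 10821 genes), namely Fcer1g, Tyrobp, Lair1, Sirpa and Cd200r1, and Fcgr2b and Fcgr4 were higher there (14.8%). Each array enters a pair of these comparisons, so they are not independent. Between pDC and CD11b+ cDC, Lair1 and Cd200r1 were higher in pDC (15.0% of 10796 genes) and Fcgr3, Fcgr4 and Sirpa higher in CD11b+ cDC (14.3%). The counts of this pair, and those of genes higher in CD8+ cDC, are not far from the shares of all genes. The median log2 difference of the 10 genes was 1.22 for CD11b+ minus CD8+ cDC, beside -0.01 over all genes. For pDC it was 0.99 when CD8+ cDC were subtracted (0.00 over all genes) and -0.26 when CD11b+ cDC were (0.01 over all genes).

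**Figure D1:**
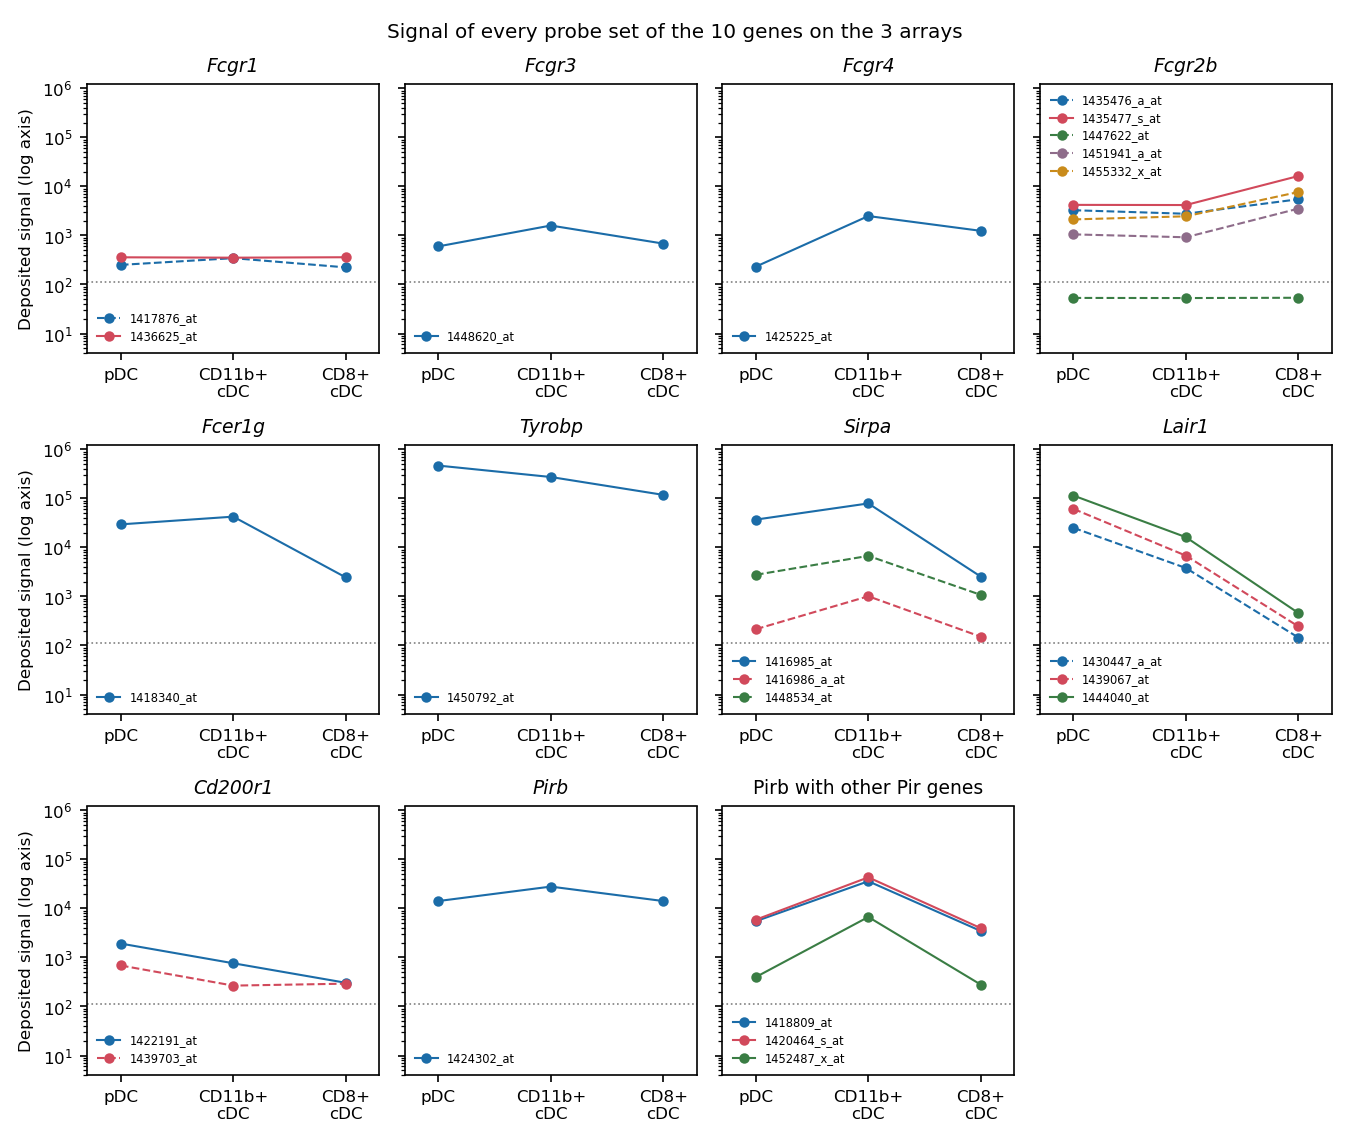
Deposited signal (log axis) of each probe set of the 10 genes on the pDC, CD11b+ cDC and CD8+ cDC arrays, 1 array each; solid lines mark the probe set that represents the gene, dashed lines its others, and the dotted line is the background level of 111.2. The last panel holds the 3 probe sets shared by Pirb and other Pir genes, drawn solid. Lair1 steps down from pDC to CD8+ cDC at all 3 probe sets, whereas 4 of the 5 Fcgr2b probe sets are brightest in CD8+ cDC and the other lies below background on every array.

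The pDC and CD8+ cDC arrays carried the markers of their labels, and the CD11b+ cDC array did so in part. The marker lists were chosen with earlier results of these data known, so their counts are a weak check of the labels. All 10 pDC markers were higher in pDC than in either cDC subset, and all 7 CD8+ cDC markers were higher in CD8+ cDC than in pDC and 6 of the 7 higher than in CD11b+ cDC, Wdfy4 being the exception. Of 5 CD11b+ cDC markers above background on either cDC array, 4 were higher in CD11b+ cDC, and Notch2 did not differ by the rule. Mgl2 was below background on both cDC arrays. Cd209a and Mgl2 were higher in pDC than in CD11b+ cDC. The T cell genes Cd3e, Cd3d and Cd3g, the B cell genes Cd79a, Pax5 and Ebf1 and the NK cell genes Ncr1, Prf1 and Eomes were below background on all 3 arrays. Other genes of these lists were not: Cd79b gave 10103 in pDC, 4026 in CD11b+ and 381 in CD8+ cDC, Ms4a1 223, 11047 and 19147, and Klrd1 96243, 83389 and 4413. Cd28 gave 4830 in pDC and was below background in both cDC subsets, and Cd5 gave 344, 2832 and 433. Cd79b and Klrd1 were thus lowest in CD8+ cDC, as Lair1 and Tyrobp were, and their part in those results was not tested. Ratios of 3' to 5' control probe sets, a measure of RNA integrity and of amplification, ran from 2.91 to 5.71 for Actb and from 9.68 to 17.6 for Gapdh, lowest in CD11b+ cDC for both. When the arrays were instead scaled on their hybridization spike-ins, the median log2 difference of all genes moved to 0.95 for CD11b+ minus CD8+ cDC, and CD11b+ cDC held 92.1% of the calls of that pair, against 51.0%. Against CD8+ cDC the pDC median moved to 0.65, with 77.6% of calls higher in pDC against 51.9%, and against CD11b+ cDC to -0.30, with 34.8% against 51.2%. Each difference below is read on the deposited scale, against these medians. In sorted pools, fewer cells carrying a transcript and less of it per cell cannot be told apart.

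Fcgr1, Fcgr3 and Fcgr4 encode the activating Fc gamma receptors. Fcgr1 encodes CD64, the high-affinity receptor for monomeric IgG that marks macrophages and monocyte-derived cells. Its brighter probe set read 358 in pDC, 352 in CD11b+ and 359 in CD8+ cDC, a spread of 1.02-fold over the arrays. The second read 251, 344 and 223. Both lay at 2.01 to 3.23 times background on every array, no pair of subsets reached 2-fold at either, and the order of the subsets differed between them. A difference in Fcgr1 was therefore not measurable at this signal.

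Fcgr3 encodes CD16, a low-affinity receptor for immune complexes. Its single probe set gave 599 in pDC, 1594 in CD11b+ and 683 in CD8+ cDC. CD11b+ cDC stood apart, 2.66-fold above pDC and 2.33-fold above CD8+ cDC, while pDC and CD8+ cDC differed 1.14-fold. That small difference (log2 -0.19 for pDC minus CD8+ cDC) turned to 0.45 with the spike-in scaling.

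Fcgr4 encodes a receptor for the IgG2a and IgG2b subclasses and is a neighbour of Fcgr3 on chromosome 1. Its single probe set gave 232 in pDC, 2489 in CD11b+ and 1243 in CD8+ cDC. The pDC array was low, at 2.08 times the background level, and lay 10.7-fold below CD11b+ cDC and 5.36-fold below CD8+ cDC. Both cDC subsets were thus well above pDC, with CD11b+ cDC 2.00-fold above CD8+ cDC (log2 1.002, or 0.996 with the arrays scaled on their medians, which falls short of the rule). A difference as large as that between pDC and CD11b+ cDC, in that direction, was found for 3.69% of genes.

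Markers of other myeloid cells were above background and many differed between the subsets. Of 12 macrophage markers, 9 were above background in pDC and 10 in each cDC subset, with Siglec1 and Timd4 below it throughout, and their summed signal was 103026 in pDC, 225084 in CD11b+ and 118097 in CD8+ cDC. Of the 10 above background in a pair, 5 were higher in CD11b+ than in CD8+ cDC and 0 lower, and 6 were higher in CD11b+ cDC than in pDC and 0 lower. Among the brightest, Adgre1 (F4/80) gave 2641, 70516 and 3196 in pDC, CD11b+ and CD8+ cDC, whereas Vcam1 was highest in CD8+ cDC, at 20551, 58884 and 68203, and Cd68 in pDC, at 66046, 59157 and 28545.

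The 8 measured monocyte markers summed to 30982, 206806 and 212911. The CD8+ cDC sum was mostly Treml4, at 163968. Of the 8, 4 were higher in CD11b+ than in CD8+ cDC and 1 was lower, and Lyz2 gave 4227, 109149 and 35561 while Ccr2 was highest in pDC, at 15908, 1227 and 628. Of 9 neutrophil markers, 8 were above background in pDC and in CD11b+ cDC and 7 in CD8+ cDC, with Cxcr2 below it throughout, and the sums were 3113, 17841 and 1815. Of the 8, 6 were higher in CD11b+ cDC than in pDC, 6 were higher than in CD8+ cDC, and 0 were lower in either pair. Over all genes, 14.3% were higher in CD11b+ cDC than in pDC and 15.0% lower. Against CD8+ cDC, 10.3% of all genes were higher in CD11b+ cDC and 9.86% lower. These shares also stand beside the macrophage and monocyte counts. Of 6 mast cell and basophil markers, Cpa3, Mcpt8, Fcer1a and Ms4a2 were below background on all arrays. Kit gave 1927, 88507 and 37647 in pDC, CD11b+ and CD8+ cDC, and Hdc less than background, 928 and 188. CD11b+ cDC were also where Fcgr3, Fcgr4, Fcer1g, Sirpa and Pirb were brightest, and the part of such cells in these signals was not tested.

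Fcgr2b encodes CD32B, the only inhibitory Fc gamma receptor of the mouse, whose ITIM recruits an inositol phosphatase. It was brightest in CD8+ cDC, and in the pair of cDC subsets its difference was opposite to those of Fcgr3 and Fcgr4, whereas against pDC both Fcgr2b and Fcgr4 were higher in CD8+ cDC. Its brightest probe set gave 4205 in pDC, 4174 in CD11b+ and 16285 in CD8+ cDC, so that CD8+ cDC were 3.87-fold and 3.90-fold higher and the other subsets were within 1.01-fold of each other. Of the others, 2 probe sets gave the same picture, at 1052, 918 and 3522 and at 2125, 2457 and 7683. The second brightest read a smaller step, at 3271, 2772 and 5470, with CD8+ cDC 1.67-fold above pDC and 1.97-fold above CD11b+ cDC. The fifth lay below background on all arrays, at 53.2, 52.9 and 53.6.

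The Fcgr2b call over CD11b+ cDC depended on the scale and the probe set. With spike-in scaling the log2 difference for CD11b+ minus CD8+ cDC went from -1.96 to -0.97. Without probe sets whose endings mark them as matching several genes or cross-hybridising, it was -0.98, and that for pDC minus CD8+ cDC went from -1.95 to -0.74. The gene was then read from its second brightest probe set. The probe set at 1052, 918 and 3522 has no such ending either, and there CD8+ cDC were 3.35-fold above pDC and 3.84-fold above CD11b+ cDC. Fcgr2b and Fcgr3 share much of their extracellular sequence, so a probe set of one can pick up the other, and how far it did was not tested.

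Fcgr2b, Fcgr4 and Fcgr3 lie in that order on chromosome 1 with no other protein-coding gene between them. Fcgr3 and Fcgr4 were both highest in CD11b+ cDC, and Fcgr2b in CD8+ cDC. The order of pDC and CD8+ cDC is not settled for Fcgr3, where they differed 1.14-fold. Fcgr2b and Fcgr4 differed between the cDC subsets in opposite directions, and Lair1 and Fcer1g were lowest in CD8+ cDC. The 250 bases before the start of each of these genes are given here. They are RefSeq sequences of build GRCm38.p6, each read 5′ to 3′ on the gene's own strand, and capitals mark matches to motifs of factors that act in DC. The motifs searched on both strands were GAGGAAGT (PU.1), the composite motif of ETS and IRF factors and TGANTCA (AP-1).
Fcgr2b, chr1:170976072-170976321, minus strand: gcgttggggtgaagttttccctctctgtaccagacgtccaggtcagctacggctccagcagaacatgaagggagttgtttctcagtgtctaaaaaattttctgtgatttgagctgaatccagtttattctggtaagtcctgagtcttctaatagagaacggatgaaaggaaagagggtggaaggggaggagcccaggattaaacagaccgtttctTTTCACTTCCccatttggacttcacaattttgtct
Fcgr4, chr1:171018676-171018925, plus strand: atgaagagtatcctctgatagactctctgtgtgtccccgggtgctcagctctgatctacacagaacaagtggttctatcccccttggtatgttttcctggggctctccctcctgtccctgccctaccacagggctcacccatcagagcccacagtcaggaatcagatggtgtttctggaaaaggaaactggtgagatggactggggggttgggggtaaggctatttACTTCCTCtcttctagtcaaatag
Lair1, chr7:4063205-4063454, minus strand: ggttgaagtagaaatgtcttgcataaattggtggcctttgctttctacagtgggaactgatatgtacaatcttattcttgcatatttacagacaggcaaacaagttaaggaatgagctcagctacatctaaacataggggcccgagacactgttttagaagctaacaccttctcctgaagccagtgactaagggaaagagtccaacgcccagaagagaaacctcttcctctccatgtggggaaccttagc
Fcer1g, chr1:171234350-171234599, minus strand: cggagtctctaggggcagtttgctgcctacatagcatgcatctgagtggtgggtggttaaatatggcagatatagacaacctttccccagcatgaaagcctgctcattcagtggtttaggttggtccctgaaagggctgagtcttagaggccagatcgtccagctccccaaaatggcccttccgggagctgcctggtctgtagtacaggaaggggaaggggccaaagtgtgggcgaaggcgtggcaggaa

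Fcgr2b held a match to the composite motif that began 35 bases before its start, and Fcgr4 a match to the PU.1 motif 24 bases before its start. Both motifs read on the complementary strand, so the capitals, which are letters of the gene's own strand, show the motif's reverse complement. Of the 7 genes with a promoter entry, Pirb held the only other match, to the PU.1 motif 120 bases before its start. Fcgr3, which differed between the cDC subsets in the same direction as Fcgr4, held no match and is not printed. The composite motif was found in 2.3% of all 32851 promoter windows of the same length, the PU.1 motif in 2.44% and the AP-1 motif in 6.75%. A match describes letters in this window and no binding was measured, and Sirpa, Tyrobp and Cd200r1 were not searched.

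**Figure D2:**
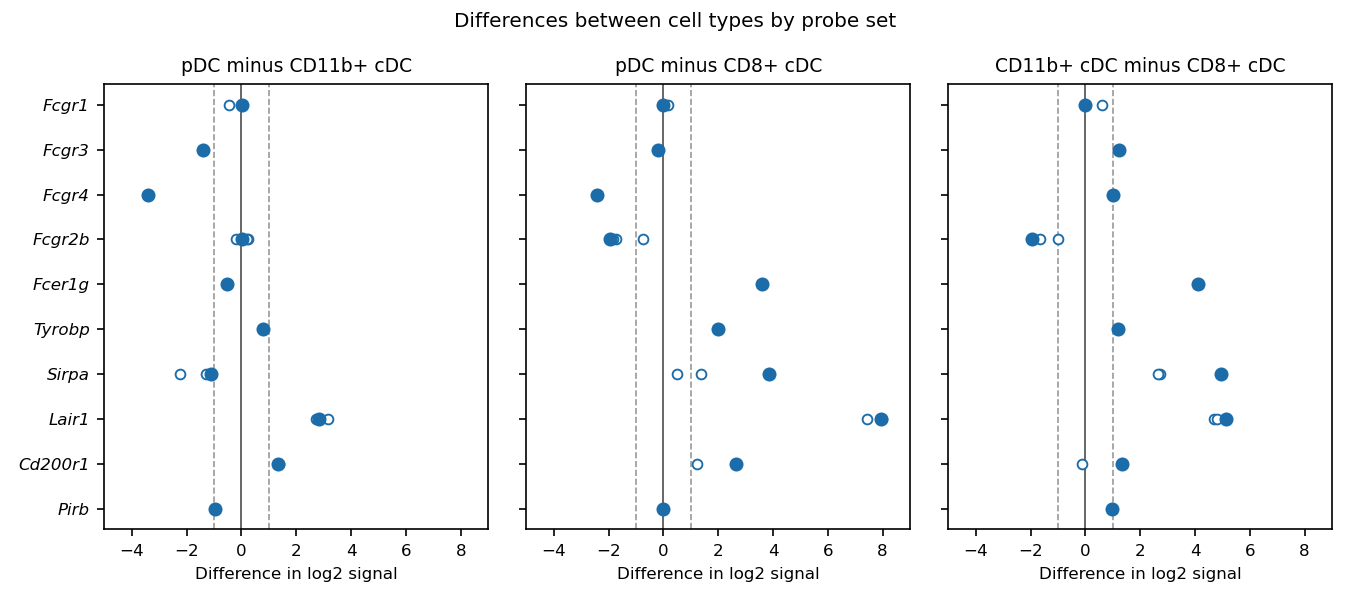
Difference in log2 signal between cell types for every probe set of the 10 genes that was above background on any array; filled points are the probe sets that represent the gene, open points the others, and dashed lines mark 2-fold. The filled points of Lair1, Sirpa and Fcer1g lie far to the right in both comparisons with CD8+ cDC and that of Fcgr2b to the left, while the open points of Sirpa lie at 1.36 and 0.51 for pDC minus CD8+ cDC. In that comparison Fcgr4 lies further left than Fcgr2b, at -2.42.

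Fcer1g and Tyrobp encode the ITAM adaptors. Fcer1g encodes the common Fc receptor gamma chain, which the activating Fc gamma receptors need to reach the surface and to signal. Its single probe set gave 29553 in pDC, 42453 in CD11b+ and 2455 in CD8+ cDC. CD8+ cDC were low, 12.04-fold below pDC and 17.3-fold below CD11b+ cDC, and the other subsets differed 1.44-fold. Only 0.915% of genes exceeded CD8+ cDC by as much in CD11b+ cDC, and 2.65% by as much in pDC.

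Tyrobp encodes DAP12, the adaptor of TREM, SIRP beta and many other activating receptors. It gave 467190 in pDC, 273280 in CD11b+ and 118141 in CD8+ cDC, again lowest in CD8+ cDC. The steps were smaller than for Fcer1g, at 3.95-fold below pDC and 2.31-fold below CD11b+ cDC. CD8+ cDC thus kept a Tyrobp signal of 1063 times background, and pDC and CD11b+ cDC differed 1.71-fold. Each adaptor has 1 probe set, so neither value could be checked against a second.

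Sirpa, Lair1, Cd200r1 and Pirb encode inhibitory receptors of myeloid cells. Sirpa encodes CD172a, which binds CD47 on other cells and restrains their engulfment, and which is often used to tell CD11b+ from CD8+ cDC. Its brightest probe set gave 36974 in pDC, 78989 in CD11b+ and 2545 in CD8+ cDC. The others gave 2768, 6727 and 1079, and 215, 1010 and 151. All 3 had the order CD11b+ cDC, pDC, CD8+ cDC. The distance between CD11b+ and CD8+ cDC was 31.0-fold, 6.24-fold and 6.68-fold at the 3 probe sets. For pDC over CD8+ cDC it was 14.5-fold, 2.57-fold and 1.42-fold, the last from a probe set at 1.93 times background or less on both arrays. CD11b+ cDC were 2.14-fold to 4.70-fold above pDC.

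Lair1 encodes a receptor for collagens and for the complement component C1q. It had the steepest gradient of the 10 genes, from pDC through CD11b+ cDC to CD8+ cDC. Its brightest probe set gave 114308, 16208 and 461 in that order, the second 61088, 6798 and 246, and the third 25104, 3803 and 145. All 3 probe sets thus showed the same order, with CD8+ cDC at 1.31 to 4.15 times the background level. Signals in pDC were 173-fold to 249-fold above those in CD8+ cDC and 6.60-fold to 8.99-fold above those in CD11b+ cDC, and CD11b+ cDC were 26.2-fold to 35.1-fold above CD8+ cDC. At the brightest probe set, 26 of 10821 genes (0.24%) exceeded CD8+ cDC by as much in pDC, and 43 genes (0.402%) by as much in CD11b+ cDC. Of 4 plasma cell markers, Xbp1 and Sdc1 were highest in pDC, as Lair1 was, and Jchain and Prdm1 in CD11b+ cDC. Their sums were 132254 in pDC, 57221 in CD11b+ and 49226 in CD8+ cDC, most of it Xbp1, which pDC are known to express. Sdc1 read 3355 in pDC and less than background in both cDC subsets, and Jchain 7870, 14060 and 957. Their part in the Lair1 signal was not tested.

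Cd200r1 encodes the receptor for CD200, an inhibitory signal that works through Dok adaptors rather than an ITIM. One probe set gave 1919 in pDC, 762 in CD11b+ and 305 in CD8+ cDC. The other gave 686, 267 and 292. pDC were highest at both, 2.52-fold and 2.57-fold above CD11b+ cDC and 6.30-fold and 2.35-fold above CD8+ cDC. The cDC subsets differed 2.50-fold at the first and 1.10-fold in the other direction at the second, so their order rests on the probe set. With spike-in scaling the log2 difference of pDC and CD11b+ cDC went from 1.33 to 0.98, just short of 2-fold.

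Pirb encodes the inhibitory paired Ig-like receptor B, which binds MHC class I, and its activating Pira partners signal through the Fcer1g adaptor. The probe set assigned to Pirb alone gave 14152 in pDC, 27887 in CD11b+ and 14150 in CD8+ cDC. CD11b+ cDC were highest at 1.97-fold above either, just under the rule, and reached it with spike-in scaling (log2 1.33 over pDC and 1.97 over CD8+ cDC) and, over pDC, with median scaling (1.01).

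The 3 probe sets shared by Pirb and other Pir genes gave a steeper pattern. Both with the annotation Pirb, Pira1 and Pira2 were brightest in CD11b+ cDC, at 5495, 35868 and 3468 and at 399, 6695 and 280 in pDC, CD11b+ cDC and CD8+ cDC. The one that also lists Lilra6 and further genes gave 5899, 43126 and 3962. CD11b+ cDC were 6.53-fold to 16.8-fold above pDC and 10.3-fold to 24.0-fold above CD8+ cDC at these probe sets, against 1.97-fold at the Pirb probe set. The genes lie near each other on chromosome 7 and are near-copies, so how much of a shared signal belongs to any one of them is uncertain.

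**Figure D3:**
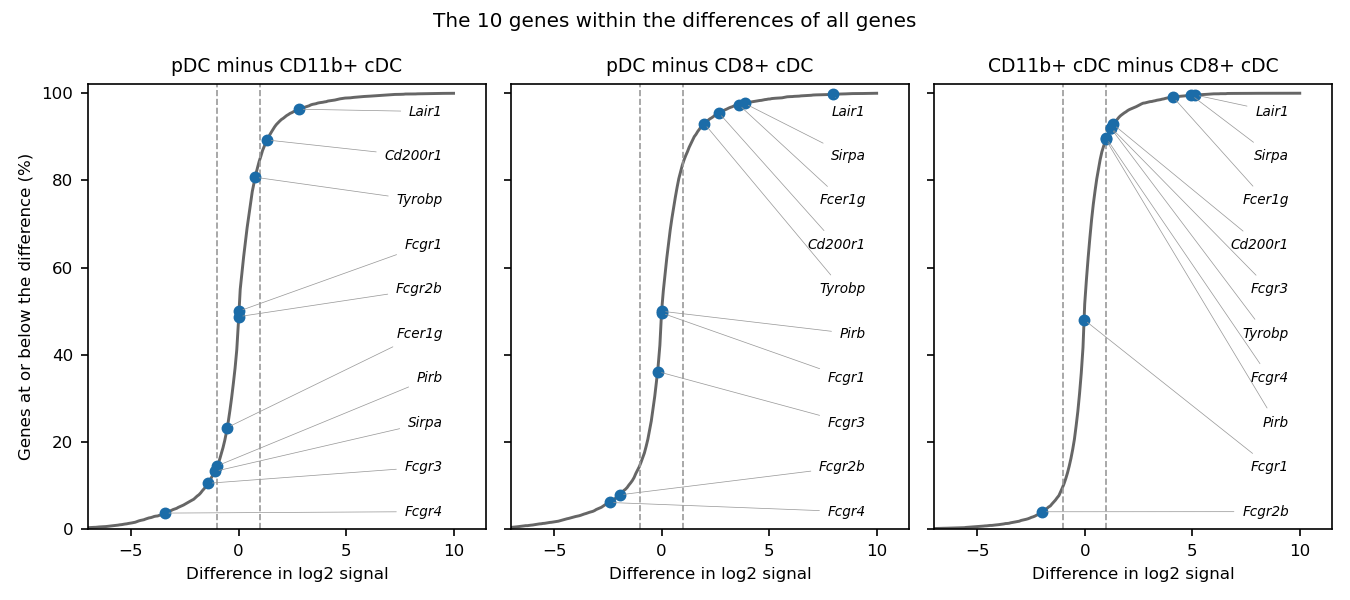
Share of all genes above background (vertical axis, in percent) with a log2 difference at or below the value on the horizontal axis, for the 3 pairs of arrays, with the 10 genes as points and 2-fold as dashed lines. In both comparisons with CD8+ cDC, Lair1, Sirpa and Fcer1g sit at the upper end of the curve and Fcgr2b at the lower. For pDC minus CD8+ cDC, Fcgr4 (-2.42) lies below Fcgr2b (-1.95).

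Genes of most similar pattern were sought over the 3 arrays by the largest gap in log2 signal after each gene was centred on its mean, among 9296 genes with an array at 4 times background or more. With 3 points, many genes come close to a plain pattern, so the count within a gap of 0.25 is given. For Fcgr3 there were 106 such genes, for Tyrobp 75, for Fcgr2b 63, for Cd200r1 36 and for Fcgr4 22. Fcer1g had 4, led by Igha (gap 0.04), an immunoglobulin heavy chain gene that read 32842, 49340 and 2732 in pDC, CD11b+ cDC and CD8+ cDC. Lair1 had 1, Tnfrsf13b (gap 0.25), which encodes the receptor TACI and read 71253, 13437 and 304. Sirpa had none within 0.25, and the nearest was Rgl1 at 0.29. The nearest to Fcgr2b were Mocos (0.01) and Lap3 (0.02), and the nearest to Fcgr4 was Cotl1 (0.07).

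Other receptors of the same kinds were measured for 21 genes of the TREM, CD300, PILR, SIRP beta and related families, and 5 of these (Treml1, Clec5a, Cd300lg, Cd200r3 and Oscar) were below background on every array. Of 16 above background on either cDC array, 11 were higher in CD11b+ cDC and 1 in CD8+ cDC, with a median log2 difference of 2.28. Over all genes, 10.3% were higher in CD11b+ cDC and 9.86% in CD8+ cDC, with a median of -0.01. The activating Sirpb1a gave 26782 in CD11b+ cDC, 190 in CD8+ cDC and less than background in pDC, at least 241-fold below CD11b+ cDC. Cd72, an ITIM receptor of B cells, gave 20820 in pDC, 11880 in CD11b+ and 213 in CD8+ cDC, and Cd300lf, an ITIM receptor for lipids, 50235, 48214 and 1977. The 1 gene higher in CD8+ cDC was Treml4, a receptor for dying cells, at 2208, 28776 and 163968.

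Against pDC, 8 of 15 of these receptors were lower in CD8+ cDC and 2 were higher (median 1.30 for pDC minus CD8+ cDC). Of all genes, 16.0% were lower and 14.8% higher. Ceacam1, an ITIM adhesion receptor, gave 14640 in pDC, 741 in CD11b+ and 172 in CD8+ cDC, and Treml2 6050, 376 and 366. Between pDC and CD11b+ cDC, 3 of 16 were higher in pDC and 6 in CD11b+ cDC (median -0.24), beside 15.0% and 14.3% of all genes. Pilrb1, an activating partner of PILR alpha, gave 367, 9310 and 863. These counts kept their direction with both other scalings, with 13 higher in CD11b+ than in CD8+ cDC and 1 lower under spike-in scaling. In that pair the spike-in scaling moved all genes the same way (median 0.95, with 92.1% of calls higher in CD11b+ cDC). Median scaling left the median of all genes at -0.01. Neither scaling could thus have turned that count round, and its kept direction is no check of it.

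Of 10 other Fc receptor genes, Fcer1a, Ms4a2, Fcer2a, Fcamr and Fcmr, the receptors of IgE and IgM among them, were below background on all arrays. Of the 5 others, 1 was higher in CD11b+ cDC and 2 in CD8+ cDC (median log2 difference -0.16, or 0.07 with spike-in scaling), 1 favoured pDC and 2 CD8+ cDC (median -0.14), and 1 was higher in pDC and 1 in CD11b+ cDC (median 0.02, or -0.14 and -0.01 with spike-in and median scaling). For these pairs in turn, the shares of all genes were 10.3% and 9.86%, 16.0% and 14.8%, and 15.0% and 14.3%. Fcgrt, encoding the neonatal Fc receptor that recycles IgG, gave 14120 in pDC, 12157 in CD11b+ and 36396 in CD8+ cDC, highest in CD8+ cDC like Fcgr2b. Fcrla, an Fc receptor-like protein held inside the cell, gave 54639, 118 and 13003, close to background only in CD11b+ cDC. Fcrl1 ran the other way, below background in pDC and at 11372 and 2912 in the cDC subsets. Trim21, the cytosolic antibody receptor, read 14031, 13876 and 15463, within 1.11-fold on the 3 arrays.

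**Figure D4:**
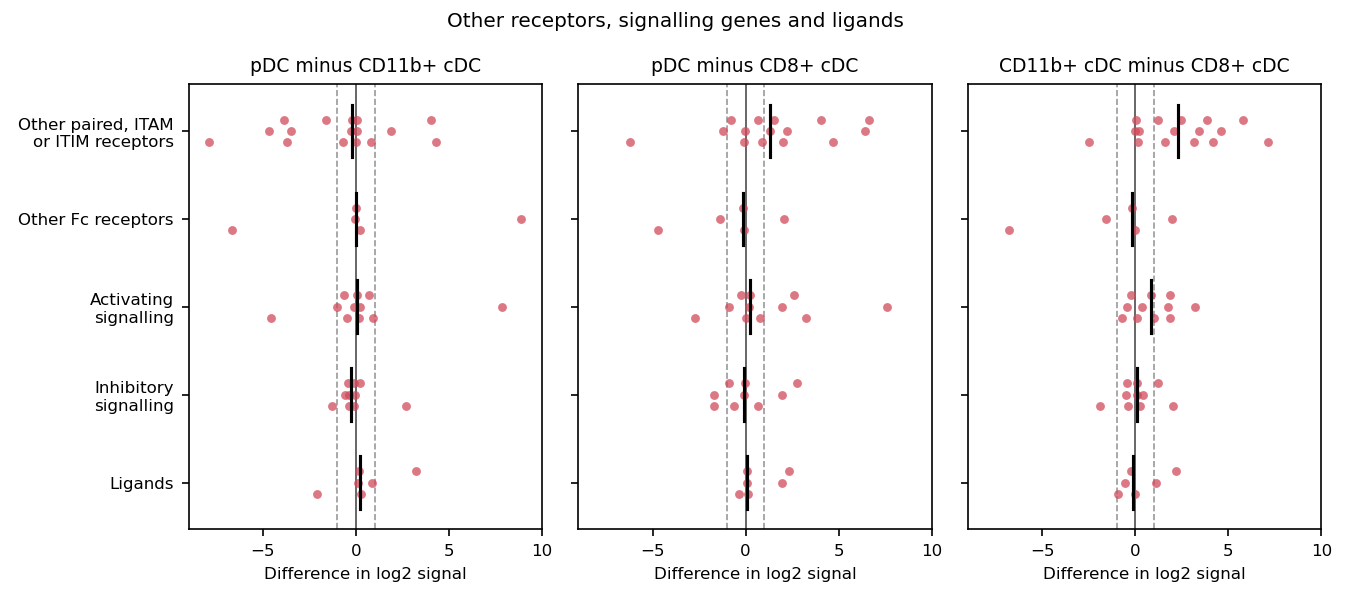
Difference in log2 signal for genes of 5 lists related to the receptors (rows), in the 3 pairs of arrays; each point is a gene above background on either array, black bars are medians and dashed lines mark 2-fold. In the comparison of CD11b+ with CD8+ cDC the other paired receptors have a median of 2.28 and the inhibitory signalling genes one of 0.09, or 0.83 with spike-in scaling.

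Of 11 genes that carry the ITAM signal onward, all were above background on every array. Of these, 5 were higher in CD11b+ than in CD8+ cDC and 0 lower (median 0.87), beside 10.3% and 9.86% of all genes. Syk, the kinase recruited to ITAMs, gave 49157 in pDC, 43048 in CD11b+ and 12569 in CD8+ cDC, and the Src family kinase gene Fgr 56575, 54579 and 5965. Both were thus lowest in CD8+ cDC, as Fcer1g was. Between pDC and CD8+ cDC, 4 favoured pDC and 1 CD8+ cDC (median 0.26), beside 16.0% and 14.8% of all genes. Between pDC and CD11b+ cDC, 1 was higher in pDC and 2 in CD11b+ cDC, beside 15.0% and 14.3% (median 0.05, or -0.30 with spike-in scaling). The adaptor genes took opposite sides here, Blnk giving 31610, 137 and 163 and Lcp2 2205, 52013 and 14428. Btk and Plcg2, which act further on, stayed under 2-fold in all 3 pairs.

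Of 10 genes that carry inhibitory signals, 2 were higher in CD11b+ than in CD8+ cDC and 1 in CD8+ cDC (median 0.09). The shares of all genes were 10.3% and 9.86%. With spike-in scaling the counts were 5 and 0 (median 0.83). Ptpn6, the tyrosine phosphatase recruited by ITIMs of Lair1, Sirpa and Pirb, gave 238736 in pDC, 249710 in CD11b+ and 61224 in CD8+ cDC, lowest where Lair1 and Sirpa were lowest. Inpp5d, the inositol phosphatase that acts for Fcgr2b, gave 61849, 83190 and 114361, highest in CD8+ cDC but under 2-fold in every pair. Cblb, a ubiquitin ligase, gave 4800, 4146 and 15387. Dok2, an adaptor of Cd200r1, was above background only in CD11b+ cDC, at 146. Between pDC and CD8+ cDC, 2 of 9 were higher in each (median -0.11, or 0.53 with spike-in scaling), and between pDC and CD11b+ cDC 1 of 10 was higher in each (median -0.25). These counts are near the shares of all genes, 16.0% and 14.8% for the first pair and 15.0% and 14.3% for the second.

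Of 9 ligand genes, Sftpd, Crp and Apcs were below background. Cd47, the ligand of Sirpa, gave 152308 in pDC, 85684 in CD11b+ and 39977 in CD8+ cDC, 3.81-fold and 2.14-fold above CD8+ cDC. Cd200, the ligand of Cd200r1, gave 11057, 1193 and 2231, highest in pDC as its receptor was. C1qa, whose product binds Lair1, gave 380, 1650 and 367. The class I genes H2-K1 and H2-D1, ligands of Pirb, stayed within 1.20-fold on all arrays. Of the 6 ligands above background, 2 were higher in CD11b+ than in CD8+ cDC and 0 lower (median -0.10, or 0.90 with spike-in scaling). For pDC against CD8+ cDC, 2 were higher and 0 lower (median 0.09), and for pDC against CD11b+ cDC 1 was higher and 1 lower (median 0.20, or -0.15 with spike-in scaling). The shares of all genes for the 3 pairs in turn were 10.3% and 9.86%, 16.0% and 14.8%, and 15.0% and 14.3%.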

How the data were processed

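Biotinylated cRNA was amplified from 20 ng of total RNA, per the labels' protocols. The values deposited by the authors are linear signal intensities, 1 for each probe set of an array. MAS5 is named, per the submitters' processing notes, without version or settings, and whether the arrays were scaled further is not stated there. The median signal was 99.6 on the CD8+ cDC array and 97.8 on each of the other arrays. Notch2 read 65924 on both of those other arrays. Whether a scaling between arrays gave such near-equal values was not tested. With such a scaling, all-gene medians near 0 and a near-even split of calls would largely be set by it. Of 45101 probe sets, 64 were controls and 34958 carried a single gene symbol in the platform annotation, giving 18194 genes; symbols were used as annotated. The background level was the 95th percentile of 87 probe sets for sensory receptors (Olfr, Vmn, Taar and Tas families) on the array where it was highest, and 5 of the 87 exceeded it on some array. Values below it were raised to it before log2 was taken, so a fold against such a value is a lower bound ("at least").

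Calls needed a 2-fold difference and a brighter signal over background. No test was run, since each cell type has 1 array. As a gauge of error within arrays, the log2 differences of a gene's brightest probe sets differed with an SD of 0.86, 0.91 and 0.75 over 4966 genes for pDC minus CD11b+ cDC, pDC minus CD8+ cDC and CD11b+ minus CD8+ cDC. The calling code was tested on simulated data, which says nothing about spread between samples.

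The 10 genes and the gene lists were chosen with earlier results of these data known, the motifs after the values were seen. Of each list, up to 4 genes per direction with the largest differences could be named; others named were chosen after their values were seen, for their role. Of 182 list entries, 153 were matched and 29 were not analysed here. Alternatives were spike-in and median scaling, a doubled background, no floor, the median over probe sets, leaving out probe sets ending in _s_at or _x_at, and a 4-fold rule. Promoters came from RefSeq (GRCm38.p6) for 7 of the 10 genes. Python 3.11.15, numpy 2.4.6 and pandas 2.3.3 were used.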

Additional observations from a re-analysis of the deposited data

How the results depend on the processing

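Over the 10 genes and 3 pairs, 191 of 210 differences computed under the 7 alternatives kept their call or lack of one, 16 fell below the rule in use, 3 came to pass it and 0 called differences changed sign. Among differences not called, 11 changed sign, each of 0.19 or less on the log2 scale as reported: 7 of Fcgr1, 2 of Fcgr2b, 1 of Fcgr3 and 1 of Pirb. With the 4-fold rule, which asks for larger differences by construction, 10 calls were lost: 1 gene was higher in pDC than in CD11b+ cDC in place of 2, 1 higher in CD11b+ cDC than in pDC in place of 3, 4 higher in pDC than in CD8+ cDC in place of 5, 1 higher in CD8+ cDC than in pDC in place of 2, 3 higher in CD11b+ than in CD8+ cDC in place of 7, and 0 higher in CD8+ than in CD11b+ cDC in place of 1. With spike-in scaling 1 gene was higher in pDC than in CD11b+ cDC and 0 were higher in CD8+ than in CD11b+ cDC. In place of the 7 higher in CD11b+ than in CD8+ cDC there were 8 with spike-in scaling. That count was 6 with median scaling, without Fcgr4, and 6 with the median over probe sets, without Cd200r1. Without probe sets ending in _s_at or _x_at, 1 was higher in CD8+ cDC than in pDC and 0 higher in CD8+ than in CD11b+ cDC, since Fcgr2b was then read from another probe set. The doubled background and the absence of a floor changed no call of the 10 genes, and could not have done so. All representing probe sets read above the doubled level of 222.3 on every array, the lowest being Fcgr4 in pDC at 231.7. Each of these settings adds 30 to the 191 kept. Leaving out _s_at and _x_at probe sets could change Fcgr2b only, and the median over probe sets could not change genes with 1 probe set. Median scaling, which adds 28, hardly moved any difference because the array medians were already near equal. It could change only values close to the rule. The 191 thus overstates how far the calls were tried. No paired analysis was possible because each cell type has 1 array. Signal over background limits Fcgr1, the CD8+ cDC values of Lair1 and Cd200r1 and the pDC value of Fcgr4, and values of Fcgr3, Fcgr4, Fcer1g, Tyrobp and Pirb rest on 1 probe set each.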
